A study of Homo sapiens with 6 samples.

Results

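The 10 transcription factors described here are PRDM1, IRF4 and XBP1, which drive plasma cell identity, BCL6, PAX5, BACH2, SPIB and EBF1, which belong to earlier B cell stages, and the octamer factors POU2AF1 and POU2F2. They were taken by symbol as 10 of the 17579 genes in the deposited gene table, and each symbol had a single row. RNA-seq was made from the multiple myeloma cell line LP-1, a human line whose labelled cell type is B lymphoblast. LP-1 cells carrying a virus with a guide RNA against AURKA, which encodes the mitotic kinase Aurora A, gave 3 libraries (labelled LP1_sgAURKA), and LP-1 cells carrying a non-targeting guide gave 3 control libraries (labelled LP1_Vector). Cells of both groups were thus virus-infected, and were cultured in serum-containing medium. The labels do not say whether the edited cells were a clone or a pool, nor whether replicates were separate cultures, so the p-values measure the spread between these libraries, which may be technical.

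A B cell becomes a plasma cell when PRDM1, a zinc-finger repressor also called Blimp-1, shuts down the B cell program that PAX5, EBF1, SPIB, BACH2 and BCL6 hold in place. IRF4 drives this switch, and myeloma cells depend on it. XBP1 runs the secretory arm: the kinase and nuclease IRE1 (ERN1) cuts a short intron out of XBP1 mRNA during stress of the endoplasmic reticulum, and the frame shift that results gives the active transcription factor. POU2AF1 is the B-lineage coactivator of the octamer-binding proteins, one of which is POU2F2.

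The sequences shown first are the stretch of XBP1 mRNA that tells its unspliced and spliced transcripts apart, from GENCODE release 29, chromosome 22. The capitals mark the 26 bases that splicing removes.
XBP1 unspliced: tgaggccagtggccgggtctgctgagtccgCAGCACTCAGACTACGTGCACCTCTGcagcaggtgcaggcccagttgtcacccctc
XBP1 spliced: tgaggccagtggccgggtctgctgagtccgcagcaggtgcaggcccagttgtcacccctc
Besides these bases the 2 annotated transcripts differed only at their ends, so few reads distinguish them. The removed stretch can be placed at 7 equivalent positions, because the bases around it repeat, and the placement drawn is the 1 that matches the IRE1 cleavage motif CNGCNGN on both sides.

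RefSeq promoters, each running from 250 bases before to 50 after a gene start, were found for 9 of the 10 factors (12 promoters). They were searched on both strands, with the factors' levels already known, for motifs that members of this network bind. The motifs were the stress response element (CCAAT and CCACG with 9 bases between them), the unfolded protein response element TGACGTGG, the octamer ATGCAAAT, the PRDM1 site core AGTGAAAG, the interferon-type element (GAAA, 2 bases, GAAA) and the ETS-IRF element (GGAA, 2 bases, GAAA). Only the XBP1 and EBF1 promoters held any of them. Both windows are shown as 120 bases that end at the base before the gene start, read on the minus strand of GRCh38.p14, with the motifs in capitals.
XBP1, chr22:28800570-28800689: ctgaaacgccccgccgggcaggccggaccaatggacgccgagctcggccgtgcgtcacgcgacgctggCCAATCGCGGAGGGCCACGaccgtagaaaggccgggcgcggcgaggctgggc
EBF1, chr5:159097957-159098076: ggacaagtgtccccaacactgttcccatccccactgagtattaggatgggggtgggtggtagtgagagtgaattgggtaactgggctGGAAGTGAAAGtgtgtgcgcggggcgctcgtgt
The XBP1 window held the stress response element, which 27 of 35116 RefSeq promoters of this length held (0.0769%). The EBF1 window held a PRDM1 site core, found in 1.34% of promoters, and the ETS-IRF element, found in 2.82%, which overlaps it. The unfolded protein response element, the octamer and the interferon-type element stood in 0.729%, 1.77% and 3.57% of all promoters. A match of letters is a description and does not show that a factor binds there.

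Library totals ran from 17724174 to 18523594 expected counts. The guide's target was measured first: AURKA stood at 113, 119 and 113 CPM (read counts scaled to library size) in AURKA-guide libraries, against 189, 192 and 195 CPM in control libraries, a log2 difference of -0.74 (SE 0.0488, edgeR quasi-likelihood test, adjusted p = 1.55e-06). Of 13138 genes that passed the filter on low counts, 267 were called at an adjusted p under 0.05 (2.03%), 126 of them higher and 141 lower in AURKA-guide cells. Control replicate 3 stood apart from the other controls. Counts differed by 5.22 and 10.5 chi-square units per gene in its pairs with control replicates 1 and 2, against 2.24 to 2.96 in the other pairs within a group, and the fit without it called 2034 genes.

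LP-1 libraries of both groups had the plasma cell pattern of the factors, with the plasma cell factors and POU2AF1 abundant and the B cell factors low or near 0. Levels are compared between genes as FPKM, the deposited value scaled to gene length and library size. XBP1 was highest at 801.6 ± 0.08 FPKM in AURKA-guide libraries and 815 ± 17.5 FPKM in control libraries (SD, n = 3 each). IRF4, POU2AF1 and PRDM1 followed, in that order, and no library's value for 1 of these 4 genes reached the range of the next. BACH2 and SPIB came next, in that order. EBF1 and POU2F2, the next pair, were the only neighbours in the order whose values overlapped, and BCL6 and PAX5 came last. Among all 17579 genes ordered by mean FPKM, XBP1 ranked 103, IRF4 488, POU2AF1 910 and PRDM1 1969, while BACH2 ranked 8737 and PAX5 17148.

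**Figure D1:**
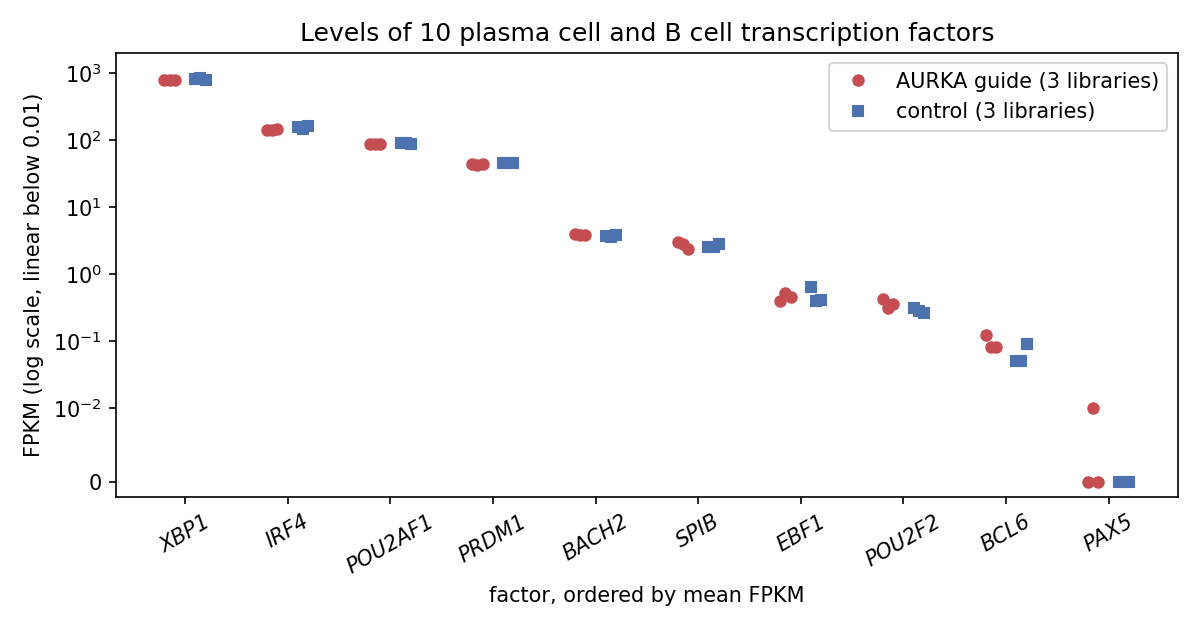
Level of each of the 10 factors in every library, as deposited FPKM on a log axis that is linear below 0.01; circles are the 3 AURKA-guide libraries and squares the 3 control libraries, and factors run from the highest to the lowest mean. The plasma cell factors and POU2AF1 lie above 40 FPKM and every B cell factor below 4 FPKM. The groups lie close together compared with the distance between factors, except for EBF1 and POU2F2, whose values overlap.

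Defining markers were read beside the label of B lymphoblast. JCHAIN, the joining chain of secreted antibodies, averaged 3819 ± 105 FPKM in AURKA-guide libraries and 3805 ± 376 FPKM in control libraries (SD, n = 3 each). MS4A1, which encodes the B cell antigen CD20, had no read in any library. Of 19 plasma cell genes in the table, 15 averaged at least 10 FPKM in both groups, while SLAMF7 and FCRL5 stayed under 1 FPKM. Of 17 B cell identity genes, 13 averaged under 2 FPKM in both groups, and the other 4 were expressed. Those were LEF1, at 107 FPKM in AURKA-guide libraries and 91.6 FPKM in control libraries, IGLL1, CIITA and BLK. IGLL1 averaged 70.7 FPKM in AURKA-guide libraries and 77.8 FPKM in control libraries, CIITA 20.2 FPKM in AURKA-guide libraries and 15.8 FPKM in control libraries, and BLK 4.89 FPKM in AURKA-guide libraries and 4.07 FPKM in control libraries. Expected counts of IGLL1 and CIITA were not whole in any library. Part of their reads was thus assigned by estimate, and their levels are less certain. Of 25 markers of T and NK, myeloid, erythroid, stromal and epithelial cells in the table, 7 passed the filter. None of the 7 was called, against 2.03% of all genes. The 25 markers summed to 9.0 to 10.7 FPKM in AURKA-guide libraries and 9.21 to 10.5 FPKM in control libraries, and their part in the results was not tested.

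None of the 8 factors that passed the filter changed at an adjusted p under 0.05, against 2.03% of all genes. In DESeq2's Wald test 0 of the 8 were called as well, against 2.14% of all genes. At an unadjusted p under 0.05, 1 of the 8 passed in edgeR, against 16.1% of all genes, and 1 in DESeq2, against 11.5%. Both counts are near the share over all genes. All 3 plasma cell factors had estimates below 0 and all 3 tested B cell factors had estimates above 0, all small. Over all tested genes the median log2 difference was -9.41e-05, so a sign alone does not set a factor apart. The signs of SPIB and POU2AF1 turned in some alternative fits, and EBF1 went the other way in mean FPKM. Each class is described below. In bulk RNA, fewer cells of a kind and less RNA per cell cannot be told apart.

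IRF4 (gene ID 3662) was the factor with the smallest p. It stood at 775, 762 and 786 CPM in AURKA-guide libraries, against 839.9, 811 and 868 CPM in control libraries. Every AURKA-guide library was below every control library. Its log2 difference was -0.12 (95% interval -0.21 to -0.02), a fold of 0.922, with an unadjusted p of 0.0163 and an adjusted p of 0.201 (edgeR, n = 3 each). The call depended on a correction for transcript GC content: with that offset the difference was -0.14 and the adjusted p 0.005, and 6.01% of all genes were called. Adjusted p values over all alternatives tried for IRF4 ran from 0.0021 to 0.489.

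PRDM1 (gene ID 639) stood at 221, 217 and 224 CPM in AURKA-guide libraries, against 234, 231 and 228 CPM in control libraries. The groups did not overlap here either, with AURKA-guide libraries lower. The log2 difference was -0.06 (95% interval -0.16 to 0.03, edgeR adjusted p = 0.504), so a fall by more than 0.16 lies outside the interval. The smallest adjusted p under any alternative was 0.0907.

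XBP1 (gene ID 7494) stood at 1455, 1458 and 1445 CPM in AURKA-guide libraries, against 1478, 1529.8 and 1439.9 CPM in control libraries. The AURKA-guide values lay within the range of the controls, and control replicate 2 was the highest library. The log2 difference was -0.03 (95% interval -0.12 to 0.06, edgeR adjusted p = 0.763). It was the most deeply counted of the factors, with at least 26604 reads in every library, and had the narrowest interval.

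The octamer factors differ widely in abundance, and only POU2AF1 was measured closely enough to place it near control level. POU2AF1 (gene ID 5450) stood at 288, 286 and 285 CPM in AURKA-guide libraries, against 297, 297 and 283 CPM in control libraries. Control replicate 3 was the lowest of the 6 libraries and the other 2 controls the highest. The log2 difference was -0.03 (95% interval -0.13 to 0.07, edgeR adjusted p = 0.780), and its sign turned under the GC offset, where it was 0.0051. POU2F2 (gene ID 5452), which encodes the octamer-binding protein Oct-2, had only 39, 43 and 44 reads in AURKA-guide libraries, against 41, 36 and 35 reads in control libraries. Its log2 difference of 0.16 had a 95% interval from -0.23 to 0.55, so a change of that size in either direction was not detectable at this depth.

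Of the B cell factors, BACH2 (gene ID 60468), a repressor of PRDM1 in B cells, was the best measured. It stood at 35.8, 35.4 and 35.8 CPM in AURKA-guide libraries, against 33.9, 33.1 and 34.9 CPM in control libraries. Every AURKA-guide library was above every control library, by a small margin. The log2 difference was 0.07 (95% interval -0.06 to 0.20, edgeR adjusted p = 0.602). In FPKM, which does not use the same library scaling, control replicate 3 at 3.85 FPKM lay above AURKA-guide replicate 2 at 3.83 FPKM.

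SPIB (gene ID 6689), an ETS factor of B cells and plasmacytoid dendritic cells, stood at 10.5, 9.87 and 8.40 CPM in AURKA-guide libraries, against 8.87, 8.91 and 9.88 CPM in control libraries. The groups overlapped, with an AURKA-guide library both highest and lowest. The log2 difference was 0.06 (95% interval -0.17 to 0.28, edgeR adjusted p = 0.832), and without AURKA-guide replicate 1 it was -0.02. SPIB shares 839 exon bases on the same strand with another annotated gene, AC020909.1, so its reads are uncertain.

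EBF1 (gene ID 1879), which opens B cell genes early in the lineage, had 54, 57 and 59 reads in AURKA-guide libraries, against 61, 40 and 53 reads in control libraries (rounded expected counts). The AURKA-guide libraries lay inside the range of the controls. The log2 difference of 0.13 had a 95% interval from -0.24 to 0.51 (edgeR adjusted p = 0.748), and without control replicate 2 it was 0.0087. In FPKM the direction was the other way, with means of 0.453 in AURKA-guide libraries and 0.48 in control libraries.

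BCL6 (gene ID 604), the repressor of the germinal centre, and PAX5 (gene ID 5079), the keeper of B cell identity, did not pass the filter. BCL6 had 7, 6 and 6 reads in AURKA-guide libraries, against 4, 3 and 6 in control libraries. PAX5 had 0, 0.98 and 0 expected reads in AURKA-guide libraries and 0 in each control library. A count of 0 allows up to 3 reads per library, which is 0.162 to 0.169 CPM over these libraries and covers counting error only. No fold is given for PAX5, since both groups were under that limit.

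Without overlap between groups were 3 of the 8 tested factors, IRF4 and PRDM1 with AURKA-guide libraries lower and BACH2 with AURKA-guide libraries higher. Among all tested genes the groups did not overlap for 20.8%, 10.2% with AURKA-guide libraries lower and 10.5% with them higher. The median log2 difference was -0.06 over the 3 plasma cell factors, 0.06 over the octamer pair and 0.07 over the 3 tested B cell factors. Over all tested genes the median was -9.41e-05, and 90% of genes lay between -0.30 and 0.29, so all 8 estimates fell inside the bulk of genes.

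**Figure D2:**
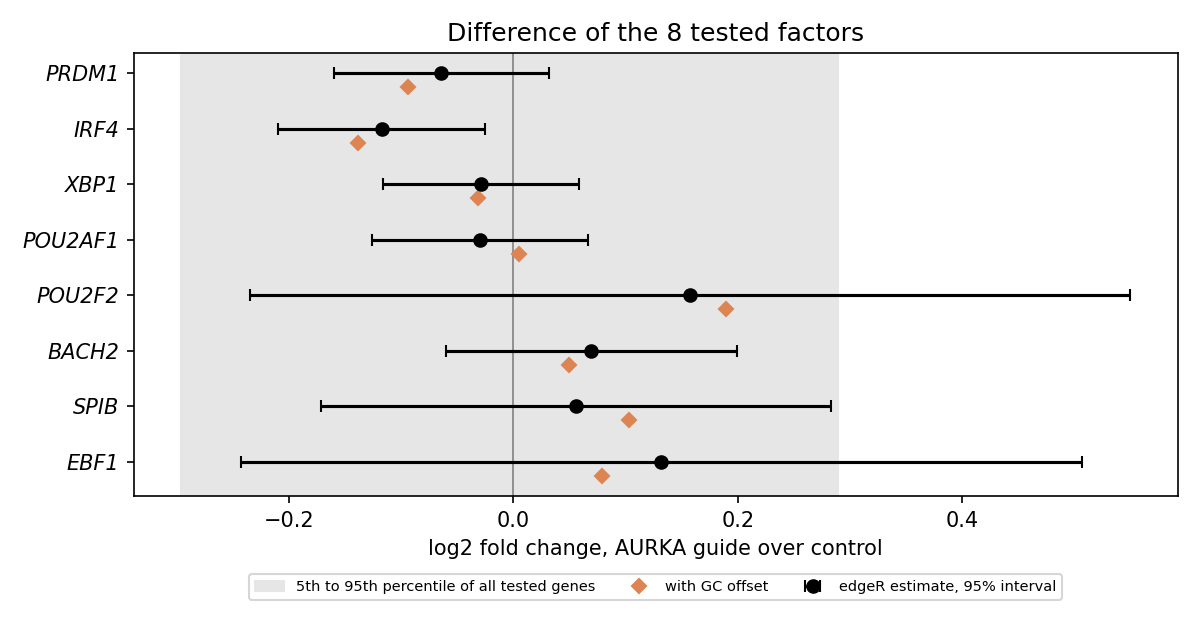
Log2 difference of the 8 tested factors, AURKA guide over control, as the edgeR estimate with its 95% interval (circles and bars) and as the estimate with an offset for transcript GC content (diamonds); the grey band spans the 5th to 95th percentile of all 13138 tested genes. Every estimate lies within the band, and of the 8 intervals IRF4's is the 1 that does not reach 0.

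The plasma cell and B cell classes were also set against each other by their summed level. PRDM1, IRF4 and XBP1 summed to 989, 985 and 993 FPKM in AURKA-guide libraries, against 1016, 1026 and 1004 FPKM in control libraries. The 5 B cell factors summed to 7.43, 7.23 and 6.79 FPKM in AURKA-guide libraries, against 6.85, 6.45 and 7.18 FPKM in control libraries. The first sum rests mostly on XBP1 and the second mostly on BACH2 and SPIB. The plasma cell sum was 133, 136 and 146 times the B cell sum in AURKA-guide libraries, and 148, 159 and 139.9 times in control libraries. These ratios overlapped between the groups, with control replicate 3 below AURKA-guide replicate 3.

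The transcript table held 80 transcripts of the 10 factors, and 24 passed the filter. None of the 24 was called by edgeR, by DESeq2, or in any edgeR fit tried. At an unadjusted p under 0.05, 0 of the 24 passed in edgeR, against 3.85% of all transcripts, and 2 in DESeq2, against 7.18%. Over the whole transcript table, edgeR called 1 of 43979 tested transcripts (0.00227%), and DESeq2 called 891 (2.03%).

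Spliced XBP1 (NM_001079539.1), the transcript without the 26 bases printed above, took 8.03%, 6.64% and 8.93% of the XBP1 reads in AURKA-guide libraries, against 8.37%, 10.1% and 6.27% in control libraries. Both the highest and the lowest share were in controls. The exact permutation test of the share gave p = 0.9 (two-sided, n = 3 each), and the smallest p this design allows is 0.1. Unspliced XBP1 (NM_005080.3) took the rest, and its log2 difference was -0.02 (SE 0.0229). In both groups most XBP1 reads were thus assigned to the unspliced transcript.

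PRDM1 was divided among full-length PRDM1 alpha (NM_001198.3), the shorter beta form (NM_182907.2), which lacks the amino-terminal end and part of the PR domain, and predicted models. The alpha form took 63.6%, 47.2% and 57.3% of reads in AURKA-guide libraries, against 51.7%, 40.8% and 51.8% in control libraries (two-sided exact permutation p = 0.3, n = 3 each). The beta form took 34.1%, 28.5% and 30.5% in AURKA-guide libraries, against 27.1%, 28.7% and 30.5% in control libraries (two-sided exact permutation p = 0.4, n = 3 each). Shares of both forms overlapped between the groups. A predicted model (XM_017011187.1) ranged from 0.00099% to 21.5% over AURKA-guide libraries and from 15.5% to 28.1% over control libraries.

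**Figure D3:**
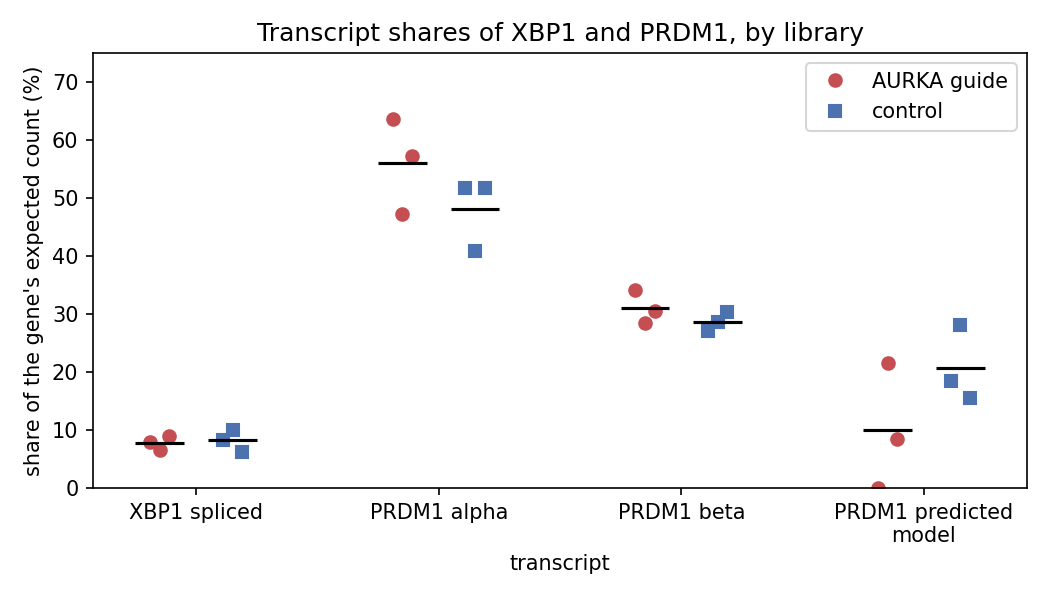
Share of each gene's expected count, in percent, given to spliced XBP1, to PRDM1 alpha and beta, and to a predicted PRDM1 model; circles are the 3 AURKA-guide libraries, squares the 3 control libraries, and bars the group means. Shares overlap between the groups for all 4 transcripts, and the predicted model varies most from library to library.

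BACH2 had the widest separation of shares. Its transcript NM_001170794.1 took 68.4%, 78.5% and 62.3% of reads in AURKA-guide libraries, against 58.8%, 31.2% and 52.7% in control libraries (two-sided exact permutation p = 0.1, n = 3 each, the smallest this design allows). All AURKA-guide shares of this transcript were above all control shares. For BACH2 transcript XM_024446510.1 they were all below. It took 4.69%, 0% and 1.89% in AURKA-guide libraries, against 14.4%, 5.97% and 11.6% in control libraries (two-sided exact permutation p = 0.1, n = 3 each). Another BACH2 transcript, NM_021813.3, took 24.8% in AURKA-guide replicate 3 and 49.4% in control replicate 2 and almost nothing elsewhere, so the division of BACH2 reads varied within each group. IRF4's main transcript NM_002460.3 took 62.5%, 65.5% and 73.7% in AURKA-guide libraries and 62.2%, 73.8% and 66.2% in control libraries (two-sided exact permutation p = 0.9, n = 3 each). Over the 18 transcripts whose share was tested, no p could go below 0.1 before adjustment. How often shares separate like this over all transcripts was not measured, so the BACH2 separations are a description only. Shares within a gene also depend on each other.

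In the authors' deposited table of changed genes, which lists 231 genes where the gene table has 17579, none of the 10 factors appeared. A list that short would hold few of any 10 genes. In the authors' deposited table for transcripts, 77 transcripts of the factors had a q-value for the AURKA guide and 0 were under 0.05, against 1.55% of all transcripts. The smallest q there was 0.563, for BACH2 transcript NM_001170794.1, with a log2 fold change of 0.61. That table also gives a comparison of an NSD2 guide with control cells, and the NSD2-guide libraries themselves were not analysed here. In the authors' deposited table, 1 of 65 transcripts of the factors passed a q-value of 0.05 with the NSD2 guide, against 1.78% of all transcripts. It was unspliced XBP1, with the authors' log2 fold change of 0.21 (q = 6.33e-11) with the NSD2 guide and -0.03 with the AURKA guide. For spliced XBP1 the authors' deposited table gave 0.35 with the NSD2 guide (q = 0.924).

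The genes around the factors were read from 4 lists. The first holds 16 genes of the secretory pathway that XBP1 activates, such as the chaperone HSPA5 and the translocon subunit SEC61A1. None of the 16 was called, against 2.03% of all genes, and their median log2 difference was -0.01. At an unadjusted p under 0.05, 1 of the 16 passed in edgeR, against 16.1% of all genes. It was SYVN1, the ubiquitin ligase of protein disposal from the endoplasmic reticulum (log2 difference -0.12, edgeR adjusted p = 0.308). SYVN1 shares 398 exon bases with FAU on the same strand, so its reads are uncertain. CRELD2 and MANF, a pair of stress-induced secreted proteins, had log2 differences of -0.16 (adjusted p = 0.315) and -0.10 (adjusted p = 0.341). Without control replicate 3 the count was 4 of 16, where that fit called 15.3% of all genes, among them SYVN1 (adjusted p = 0.00883) and CRELD2 (adjusted p = 0.0251).

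Of 17 B cell identity genes in the table, 14 passed the filter, 2 were called higher in AURKA-guide cells (0.959% of all genes) and none lower (1.07% of all genes), and the median log2 difference was -0.10. CIITA, the master activator of MHC class II genes and a gene that PRDM1 represses, stood at 110.1, 101 and 106 CPM in AURKA-guide libraries, against 90.1, 83.3 and 73.1 CPM in control libraries. It rose by 0.36 on the log2 scale (SE 0.0693, edgeR adjusted p = 0.0113), a call lost without any 1 of the AURKA-guide replicates (adjusted p 0.0513 to 0.0811). CIITA shares 2416 exon bases with DEXI on the opposite strand and 2378 with the annotated AC133065.3 on its own strand, so its reads are uncertain. LEF1, a Wnt pathway factor of early B cells, rose by 0.22 (SE 0.0442, edgeR adjusted p = 0.0164), and its call was lost without AURKA-guide replicate 1 (0.0774), 2 (0.112) or 3 (0.128) and without control replicate 1 (0.105). CR2, the complement receptor CD21, averaged 5.16 ± 0.47 CPM in AURKA-guide libraries and 6.94 ± 0.24 CPM in control libraries (log2 difference -0.43, edgeR adjusted p = 0.0874), and was called with the GC offset (0.0247) and without control replicate 3 (0.0251).

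Of 40 other lymphoid transcription factors, 36 passed the filter, 2 rose, against 0.959% of all genes, and 2 fell, against 1.07%. ID2, which binds E proteins and blocks their contact with DNA, stood at 124, 122 and 115 CPM in AURKA-guide libraries, against 92.6, 98.5 and 90.6 CPM in control libraries. It rose by 0.36 (SE 0.0547, edgeR adjusted p = 0.00248) and was called in every fit tried. TCF4, an E protein, stood at 396, 412 and 424 CPM in AURKA-guide libraries, against 331, 308 and 353 CPM in control libraries. It rose by 0.31 (SE 0.0538, edgeR adjusted p = 0.0057), and was not called without AURKA-guide replicate 2 (0.0533) or 3 (0.0664). CBFA2T3, a corepressor of the ETO family, stood at 29.2, 27.4 and 28.7 CPM in AURKA-guide libraries, against 40.7, 40.2 and 35.6 CPM in control libraries. It fell by 0.45 (SE 0.0702, edgeR adjusted p = 0.0031) and was called in every fit tried. KLF2, a factor of lymphocyte quiescence and homing, fell by 0.30 (SE 0.0685, edgeR adjusted p = 0.0378), but by 0.18 with the GC offset, and the call was lost without any 1 of the AURKA-guide replicates or of control replicates 1 and 2 (adjusted p 0.0824 to 0.269). The list's median log2 difference was 0.07.

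Of 19 plasma cell genes, 18 passed the filter, 3 rose, against 0.959% of all genes, and 2 fell, against 1.07%, with a median log2 difference of -0.0025. CD38, an ectoenzyme of the plasma cell surface, stood at 274, 275 and 272 CPM in AURKA-guide libraries, against 207, 206 and 217 CPM in control libraries, and was called in every fit tried (log2 difference 0.38, SE 0.0456, edgeR adjusted p = 4.16e-04). TXNDC5, a protein disulfide isomerase, stood at 2675, 2767 and 2701 CPM in AURKA-guide libraries, against 3149.7, 3205 and 3184 CPM in control libraries, and fell by 0.23 (SE 0.0377, edgeR adjusted p = 0.00473) with a call in every fit tried. Its reads are uncertain because the readthrough gene BLOC1S5-TXNDC5 shares 2658 exon bases with it. DERL3, which helps clear misfolded secretory proteins, rose by 0.41 (edgeR adjusted p = 0.00675), FKBP11, a secretory-pathway prolyl isomerase, fell by 0.27 (0.0173), and CD28, a costimulatory receptor also found on myeloma cells, rose by 0.28 (0.0469). Each of these 3 calls was lost in at least 1 fit without a library. They were lost for DERL3 without AURKA-guide replicate 2 (0.0545), for FKBP11 without AURKA-guide replicate 1 (0.0599), 2 (0.0978) or 3 (0.162) or control replicate 1 (0.109), and for CD28 in every such fit but the 1 without control replicate 3 (0.0698 to 0.304). CD28 was not called by DESeq2 either (0.0847), and limma on FPKM called neither DERL3, CD28 nor KLF2. DERL3 shares 2923 exon bases with SMARCB1 on the opposite strand, and strandedness is not given, so its reads are uncertain too. FKBP11 shares 239 exon bases with AC073610.2 on the same strand, so the reads of FKBP11 are uncertain.

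**Figure D4:**
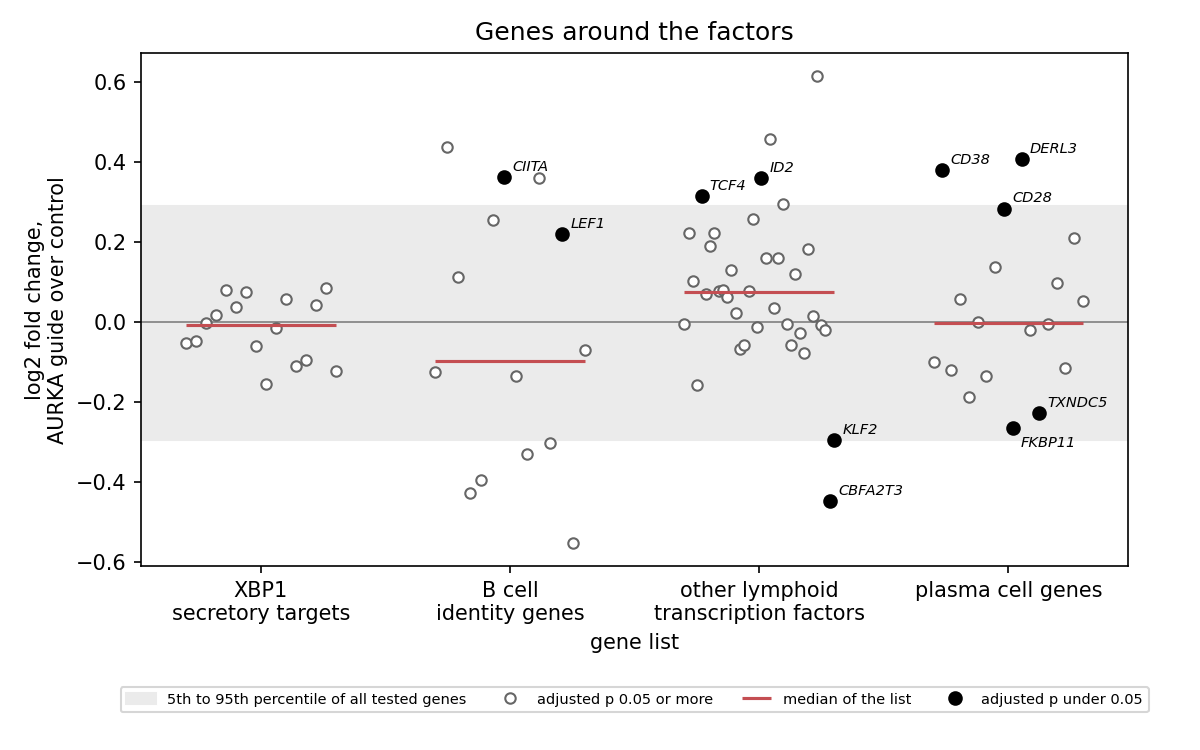
Log2 difference, AURKA guide over control, of every tested gene in the 4 lists around the factors; filled points had an edgeR adjusted p under 0.05 and are named, open points did not, red lines are list medians, and the grey band spans the 5th to 95th percentile of all tested genes. No XBP1 secretory target is filled, and the filled genes of the other 3 lists lie on both sides of 0 except among the B cell identity genes, where both lie above it.

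The genes whose pattern over the 6 libraries was most like each plasma cell factor were found by Pearson's r of log2 CPM among 9226 genes that averaged 10 CPM or more. For IRF4 these were PIP4K2C (r = 0.992), HEXIM1 (0.988) and PHF10 (0.988). For PRDM1 they were GALNT18 (0.978), PRICKLE1 (0.978) and GABBR1 (0.977). For XBP1 they were STARD10 (0.999), CCM2 (0.998) and CSNK1D (0.998). The 6 points are the same libraries for every gene, and high values were common: 647 genes had an r over 0.9 with XBP1, 135 with PRDM1 and 81 with IRF4, so these names are a description only.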

How the data were processed

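Per the labels, RNA-seq libraries followed a BGISEQ-500 protocol. The submitters' processing notes name hg19, BWA, Bowtie2 and RSEM, without versions. Strandedness is not given in the sources used here, so reads of genes with exons overlapping on the opposite strand are uncertain too. Such overlaps include 501 exon bases for CBFA2T3, 396 for BACH2 and 279 for LEF1. For 17579 genes and 84276 transcripts the authors deposited expected counts, RSEM's estimates; 44.8% of the gene values were not exactly whole, with no tolerance. They also deposited FPKM values, and comparison tables with log2 fold changes, p-values and q-values, per the file headers.

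Expected counts were rounded and tested in edgeR 4.0.16 (R 4.3.3) over all genes or transcripts: filterByExpr, TMM scaling, the quasi-likelihood F test, Benjamini-Hochberg adjustment and a threshold of 0.05. Fold changes are AURKA guide over control; CPM uses TMM-scaled library sizes, and intervals and standard errors come from the F statistic. Transcript shares (those of at least 5% in genes with at least 100 reads) were compared by exact permutation in scipy 1.17.1. Depth limits precision: a count of 0 allows up to 3 reads, for counting error only.

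Alternatives were other filters and scalings, DESeq2 1.42.0, limma-trend (limma 3.58.1) on log2(FPKM + 1) and log2(FPKM + 0.1) with a minimum of 0.5 FPKM in 3 libraries, an offset for GC content of the longest coding GENCODE release 29 transcript (natural spline, 5 degrees of freedom), the replicate number as a block, and each library left out. The members and gene lists were chosen with earlier results of these data known. Genes are named if they are members, AURKA, called in a list, among the 3 smallest p in a list with a mean of at least 5 CPM, or most alike to a plasma cell factor. Of the listed genes, CD22, FCER2, VPREB1, RAG2, CD37, CD3D and FCGR3A were not analysed here. Of the symbols, 76 were dates or numbers, none of them a member's.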

Additional observations from a re-analysis of the deposited data

How the results depend on the processing

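No factor was called in the main test, and 1, IRF4, was called with the GC offset (log2 difference -0.14, adjusted p = 0.005) and with the replicate block and GC offset together (-0.14, adjusted p = 0.0021); no factor was called under the other alternatives. Of 121 values for the 8 factors under alternatives, 3 changed sign: POU2AF1 was 0.0051 with the GC offset and 0.0051 with the block and GC offset, and SPIB ran from -0.015 to 0.14 with 1 library left out. Without the filter, BCL6 had a log2 difference of 0.52 (adjusted p = 0.687) and PAX5 was not called. Spliced XBP1 (NM_001079539.1) ran from -0.28 to 0.092 and PRDM1 beta (NM_182907.2) from -0.026 to 0.12 with 1 library left out. The number of genes called was 267, but 789 with the GC offset, 881 with the block and GC offset, and 98 to 2034 with 1 library left out, the highest without control replicate 3. Of transcripts, 1 was called, 891 by DESeq2, 0 with the replicate block (1118 at an unadjusted p under 0.05) and 0 with any 1 library left out (2084 to 3040 at an unadjusted p under 0.05). The cause was not tested. The labels do not pair the replicate numbers: same-numbered libraries had correlations of 0.150, -0.145 and 0.354 between their deviations from the group means. Between libraries with different numbers the correlations ran from -0.514 (AURKA-guide replicate 1, control replicate 3) to 0.478 (AURKA-guide replicate 1, control replicate 2). The block alone called 385 genes and no factor. No alternative moved the median of all genes by more than 0.01. GC and FPKM alternatives were not run on transcripts. Low counts limit POU2F2, EBF1, BCL6 and PAX5.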
